A study of Mus musculus with 40 samples.

Results

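The 9 genes Kit, Cd34, Cd44, Flt3, Bcl11a, Lmo2, Hhex, Mef2c and Erg belong to the programme that thymus-seeding cells bring with them from blood stem and progenitor cells. They were found by exact gene symbol, and all 9 are rows of each of the 3 deposited tables, among 23284 genes in the pI-pC and antibody table and 23107 in each tamoxifen table. Their estimated read counts were followed over the 2 thymocyte stages and the 6 comparisons of treated with control mice. Levels are given as CPM (counts scaled to library size), on which all libraries of 1 table share a common size.

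RNA was sequenced from sorted thymocytes of C57BL/6 mice, in 40 libraries of 12 groups, to ask how loss of Zmiz1, a co-activator of Notch1, and blockade of Notch1 change thymocytes of 2 stages, ETP (early T-cell precursors) and DN3 (the double-negative 3 stage). DeltaMxCre mice carried MxCre and Zmiz1f/f, MxCre controls carried the Cre transgene alone, and both received 40 mcg of pI-pC in each of 5 injections and were sorted 8 weeks later (3 mice per group). DeltaTamCre mice carried Rosa26CreERT2 and Zmiz1f/f, TamCre controls carried Rosa26CreERT2 alone, and both received 0.2 mg/g tamoxifen 43 to 44 hours before the sort (4 mice per group). AntiNRR mice received 10 mg/kg of a blocking antibody to the Notch1 NRR, its negative regulatory region, and IgG mice an isotype control, 24 hours before the sort (3 libraries per group, with no number of mice or genotype given in the labels). MxCre is switched on by the interferon that pI-pC induces, and Rosa26CreERT2 is active in most cell types, so neither deletion is limited to thymocytes. Ages of the mice are not given in the sources used here.

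ETP are the most immature thymocytes and still hold the capacity to make other blood cells. Notch1 signalling in the thymus carries them to T-lineage commitment, and DN3 cells, which rearrange the T-cell receptor beta chain, come after commitment. The stem and progenitor programme is known to be shut down on that path, and forced expression of several of its transcription factors is known from T-cell leukaemia.

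The genes fall into 3 roles. Kit and Flt3 are receptor tyrosine kinases for stem cell factor and Flt3 ligand. CD34 is a surface sialomucin, and CD44 is a receptor for hyaluronan. Bcl11a, Hhex, Mef2c and Erg encode transcription factors of the zinc-finger, homeobox, MADS-box and ETS families, and Lmo2 is an adaptor that joins DNA-binding factors into one complex. In GENCODE M21 on GRCm38, the mm10 assembly, Bcl11a spans chr11:24078056-24174123 on the plus strand, Cd44 chr2:102811141-102901665 on the minus strand, Erg chr16:95359169-95586593 on the minus strand and Kit chr5:75574916-75656722 on the plus strand.

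RefSeq promoter sequence on GRCm38.p6 was found for 8 of the 9 genes, in 13 windows of 250 bases before a listed start, and was searched on both strands for 6 short motifs. The letters TGGGAA, the core that the Notch effector RBPJ recognises, were in 3 of the 13 windows, those of Cd44, Bcl11a and Erg. These letters are in 21.6% of all 32851 windows of that length, so a match is common and the members' share is near that of all windows. In DN3, Cd44 and Bcl11a were called after pI-pC deletion and not under the Notch1 antibody. Erg was called under the antibody, as was Kit, whose windows held no match. The 3 stretches with a match are shown 5′ to 3′ on the gene's strand, with the core or its reverse complement in capitals. The Cd44 stretch (chr2:102901766-102901915, 250 to 101 bases before the start, outside any annotated gene) holds it on both strands. The Bcl11a stretch (chr11:24080445-24080594, 250 to 101 bases before the listed start) and the Erg stretch (chr16:95459349-95459498, 150 to 1 bases before the third listed start) each hold 1 match and lie in introns of the GENCODE gene.
Cd44: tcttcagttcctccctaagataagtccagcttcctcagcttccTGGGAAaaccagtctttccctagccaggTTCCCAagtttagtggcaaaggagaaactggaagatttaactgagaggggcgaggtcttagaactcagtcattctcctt
Bcl11a: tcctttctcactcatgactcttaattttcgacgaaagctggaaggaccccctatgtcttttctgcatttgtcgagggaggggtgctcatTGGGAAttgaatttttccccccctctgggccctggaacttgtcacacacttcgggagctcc
Erg: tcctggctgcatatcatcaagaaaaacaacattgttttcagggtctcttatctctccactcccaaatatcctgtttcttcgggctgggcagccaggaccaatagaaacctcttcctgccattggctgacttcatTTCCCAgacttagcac
The GATA motif AGATAA was in the same Cd44 and Erg windows and is in 9.99% of all windows. The RUNX motif TGTGGT, the PU.1 motif GAGGAAGT and the E-boxes CACGTG and CAGCTG, in 14.0%, 2.44%, 6.02% and 13.0% of all windows, were in none of the members' windows.

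The libraries of the pI-pC and antibody table held 9456818 to 23962395 counts, those of tamoxifen ETP 17418638 to 30975324 and those of tamoxifen DN3 48127197 to 91659598, and each of the 3 sets had its own library kit. Zmiz1, the deleted gene, was lower in every DeltaMxCre library than in every MxCre library of the same stage and lower in every DeltaTamCre library than in every TamCre library. In DN3 it was at 120 against 318 CPM after pI-pC and at 204 against 322 CPM after tamoxifen. In ETP it was at 89.8 against 238 CPM and at 201 against 440 CPM. The difference passed the edgeR test in DN3 (adjusted p = 0.000144 after pI-pC and 0.0368 after tamoxifen) and not in ETP (adjusted p = 0.256 and 0.907), and the tamoxifen call was kept in 1 of 8 fits that each left out a library. The labels give both stages as CD44+CD25-Lineage-, with cKit in addition for ETP. Il2ra, which encodes CD25, was nevertheless high at both stages (1972 CPM in MxCre ETP and 3274 CPM in MxCre DN3). CD44 and cKit were thus part of the sort, and the stage differences of Cd44 and Kit are descriptions only. Among the ETP libraries of the antibody experiment, IgG ETP 3 and AntiNRR ETP 2 stood apart: each was the highest of its group for 9 of the 9 genes.

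Compared per kilobase of merged exon, Kit was the most abundant of the 9 in MxCre ETP, at 44.5 CPM per kb. Erg followed at 26.6, Cd44 at 21.4, Cd34 at 19.7 and Hhex at 10.1 CPM per kb. Bcl11a (6.61), Lmo2 (4.58), Mef2c (2.55) and Flt3 (2.45 CPM per kb) were lower. In MxCre DN3, Kit (10.1 CPM per kb) and Erg (8.70 CPM per kb) still led, Bcl11a stood at 1.77, and Cd44 (0.804), Hhex (0.463), Mef2c (0.423) and Cd34 (0.0982 CPM per kb) were each below 1 CPM per kb. Flt3 was at 0.00309 CPM per kb there and Lmo2 at 0.

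The first comparison asked how far each gene differs between the 2 stages in control mice. In MxCre mice all 9 genes were higher in every ETP library than in every DN3 library, from 3.12-fold for Erg to 201-fold for Cd34 among the genes with more than 1 count in DN3. In these mice edgeR's quasi-likelihood test with Benjamini-Hochberg adjustment called 9 of 9 higher in ETP, where 2.1% of the 12399 genes tested were called higher and 2.99% were called in either direction. Groups without overlap, higher in ETP, made up 11.0% of all genes tested. The median log2 difference of the 9 was 4.48, against 0.01 over all genes. Without MxCre DN3 1 the test called 5 of the 9. Flt3 and Lmo2, with 1 and 0 counts in MxCre DN3, passed the low-count filter through ETP alone and so could only be higher in ETP. Kit and Cd44 were part of the sort. The counts of genes called or without overlap, and the median, include these genes and support nothing for them. They bear only on Cd34, Bcl11a, Hhex, Mef2c and Erg. In bulk libraries, fewer cells that hold a transcript and less of it per cell cannot be told apart.

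Among the surface genes, Cd34 was at 125, 176 and 130 CPM in the 3 MxCre ETP libraries and at 0.631, 0.606 and 0.912 CPM in the 3 MxCre DN3 libraries. The 2 stages were far apart in every library, and the log2 difference was 7.65 (SE 0.319, adjusted p = 6.72e-06). Cd44 was at 145 ± 44.2 CPM (SD, n = 3) in ETP and 5.45 ± 1.7 CPM in DN3, low for a stage labelled CD44+. Kit was at 396 ± 63.0 CPM in ETP and 90.0 ± 12.2 CPM in DN3, so a stage sorted without cKit still held a clear Kit level. Flt3 was at 18.6, 15.5 and 11.3 CPM in ETP, from 798 counts, and had 1 count in the 3 DN3 libraries together. That ratio was 782, with a 95% counting interval of 140 to 30901 that covers counting error only.

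Among the transcription factors and the adaptor Lmo2, Hhex was at 42.5, 68.3 and 43.0 CPM in MxCre ETP and at 3.10, 2.42 and 1.50 CPM in MxCre DN3 (log2 difference 4.48, SE 0.411, adjusted p = 0.000793). Bcl11a was at 87.1 ± 24.7 CPM in ETP and 23.3 ± 7.55 CPM in DN3 (log2 1.93, SE 0.33, adjusted p = 0.0139), a call that was lost without MxCre DN3 1 or MxCre ETP 2, with adjusted p up to 0.0724. Erg was at 92.2 ± 19.1 and 30.2 ± 6.59 CPM (log2 1.64, SE 0.262, adjusted p = 0.00992), and its call was lost without MxCre DN3 1, MxCre DN3 3 or MxCre ETP 2, up to 0.0643. Mef2c was at 40.1 ± 20.3 and 6.65 ± 2.63 CPM (log2 2.62, SE 0.493, adjusted p = 0.0209, lost without any 1 DN3 library or MxCre ETP 2, up to 0.104). Lmo2 had 504 counts in ETP and 0 in DN3, at least 165-fold higher in ETP against a floor of 3 counts over the DN3 group. Its adjusted p of 0.0197 rose to as much as 0.0781 without any 1 DN3 library or MxCre ETP 2.

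In IgG mice the estimates of all 9 genes were also higher in ETP, and 8 of 9 were called. Cd34, Flt3 and Lmo2, with 4, 0 and 14 counts in IgG DN3, passed the low-count filter through ETP alone and could only differ in that direction. Kit and Cd44, part of the sort, are descriptions only here too. The counts of genes called or without overlap, and the median, support nothing for these genes. They bear only on Bcl11a, Hhex, Mef2c and Erg. In this comparison 7.6% of 12720 genes were called higher and 14.7% were called at all, and 8 of the 9 genes had no overlap between stages, against 16.6% of all genes. The median log2 difference was 3.89, against 0.01 over all genes, and without IgG DN3 2 the test called 4 of the 9. Bcl11a (95.3 ± 45.0 and 34.7 ± 3.77 CPM, log2 1.46, SE 0.264, adjusted p = 0.00236) and Mef2c (log2 2.63, SE 0.512, adjusted p = 0.00459) were called in each of the 6 fits without 1 library. Cd34 had 4108 counts in IgG ETP and 4 in IgG DN3, a ratio of 1492 with a counting interval of 583 to 5474 (adjusted p = 0.0084, lost without any 1 DN3 library, up to 0.129). Hhex differed by 3.89 on the log2 scale (SE 0.742, adjusted p = 0.0107, lost without IgG DN3 2 or 3, up to 0.122). Erg, at 62.4 ± 15.4 and 37.3 ± 3.22 CPM, had the smallest difference, 0.74 (SE 0.201, adjusted p = 0.02, lost without IgG DN3 2, IgG DN3 3 or IgG ETP 3, up to 0.0986).

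Flt3 and Lmo2, which passed the filter through ETP alone, gave calls that changed with the test or the library left out. Flt3 was at 3.06, 23.7 and 52.5 CPM in the 3 ETP libraries and had no count in DN3, at least 473-fold higher against the floor, yet its adjusted p was 0.053 in edgeR and 5.77e-07 in DESeq2. Lmo2 ranged from 0.447 to 14.3 CPM in IgG ETP, and the lowest of these lay below the 0.702 CPM of IgG DN3 1, so the groups overlapped. Its counts were 271 and 14, a ratio of 28.1 (counting interval 16.8 to 51.4) with an adjusted p of 0.0416 that was lost without IgG DN3 2, IgG DN3 3, IgG ETP 2 or IgG ETP 3. Without IgG ETP 3, the library that stood apart, 7 of 9 genes were called, Flt3 against a group at 0 among them, and Lmo2 and Erg were not.

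**Figure D1:**
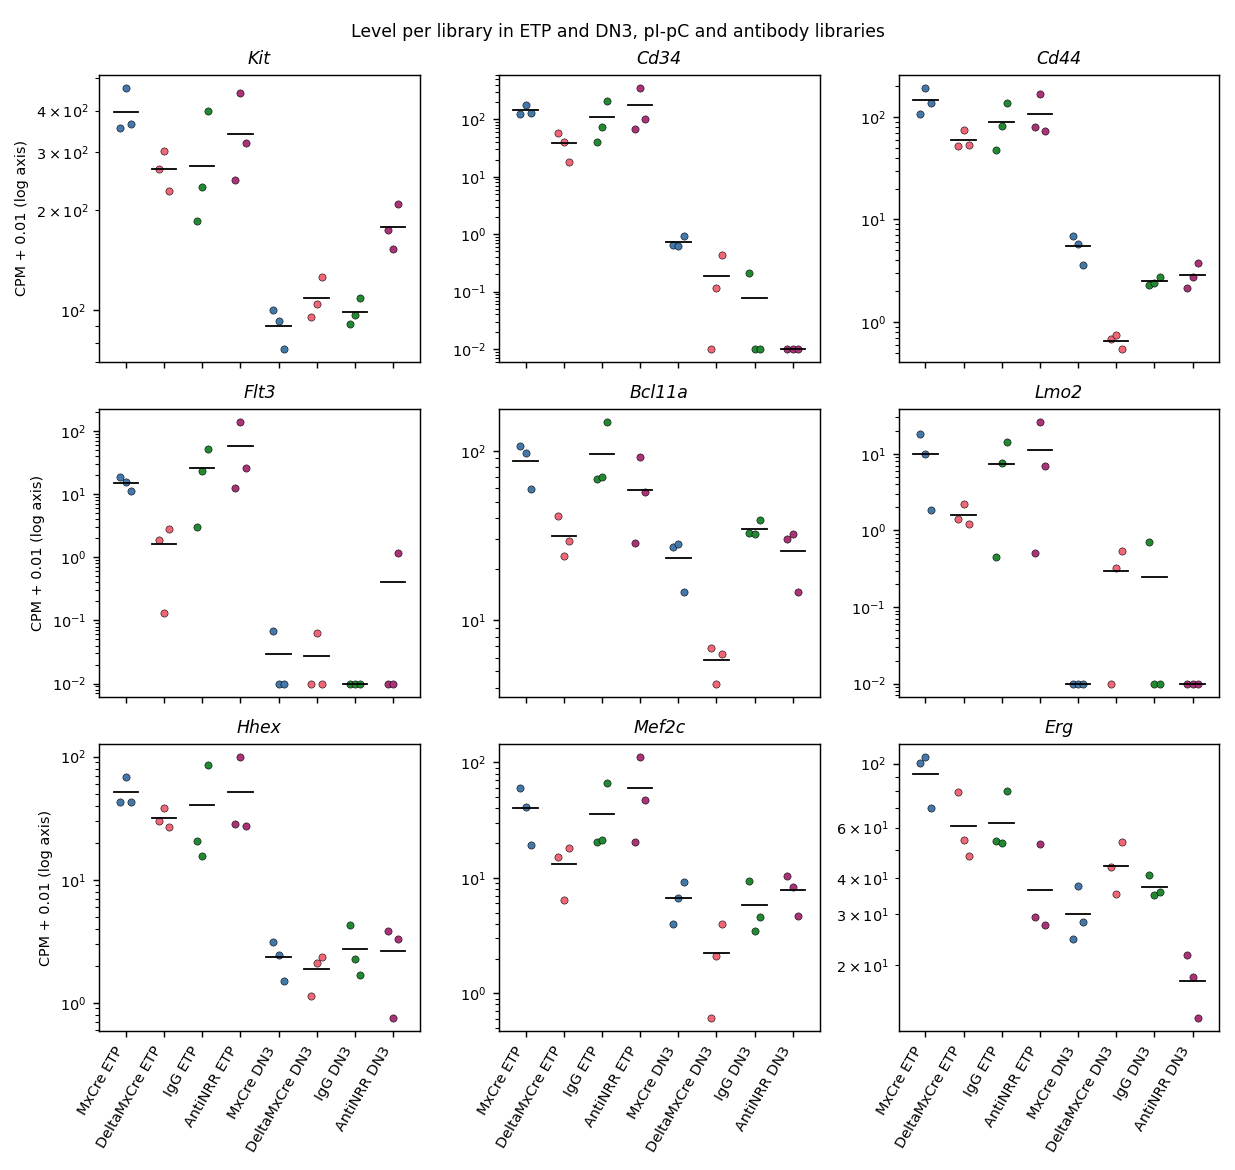
CPM of each of the 9 genes in the 24 libraries of the pI-pC and antibody table, on a log axis after adding 0.01 CPM, with 1 point per library, a bar at the group mean and the 8 groups along the horizontal axis. Cd34, Cd44 and Hhex separate all ETP from all DN3 libraries, whereas Erg and Bcl11a overlap between stages.

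Over all 24 libraries of that table, treated ones included, Cd34, Cd44 and Hhex alone of the 9 had no overlap between the stages. The lowest ETP library for Cd34 (DeltaMxCre ETP 3, 18.0 CPM) lay above the highest DN3 library (MxCre DN3 3, 0.912 CPM). Kit overlapped through AntiNRR DN3 3 (209 CPM), which lay above IgG ETP 1 (186 CPM). Erg overlapped widely, from 27.6 CPM in AntiNRR ETP 3 to 53.5 CPM in DeltaMxCre DN3 3. In the order of group means, the 4 ETP groups led for Kit, Cd34, Cd44, Flt3, Lmo2, Hhex and Mef2c, with most neighbours overlapping. For Bcl11a and Erg the order mixed the stages: DeltaMxCre ETP stood below IgG DN3 for Bcl11a, and AntiNRR ETP below IgG DN3 and DeltaMxCre DN3 for Erg.

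In the tamoxifen libraries Erg alone of the 9 overlapped between the stages, at 21.2 to 67.9 CPM in ETP and 31.7 to 52.0 CPM in DN3. Each stage there was made with its own kit and was not tested against the other. TamCre and DeltaTamCre ETP held Cd34 at 56.5 to 176 CPM, and the DN3 libraries at 0.569 to 2.35 CPM. Hhex ran from 45.5 to 74.0 CPM and from 1.49 to 2.76 CPM, and Cd44 from 117 to 312 and from 3.31 to 5.44 CPM. Flt3 ran from 9.39 to 20.4 CPM in ETP and reached 0.0800 CPM at most in DN3.

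A list of 30 other stem and progenitor genes and a list of 20 T-lineage genes were compared between the same stages. In MxCre mice, 7 of the 23 tested stem and progenitor genes were higher in ETP and 0 lower, with a median log2 difference of 1.63 against 0.01 over all genes. They included Nfe2, an erythroid and megakaryocyte transcription factor (101 against 14.0 CPM, log2 2.88, adjusted p = 0.00212), Angpt1, a ligand of the Tie2 receptor (275 against 77.4 CPM, log2 1.86, adjusted p = 0.00212), and Cd93, a surface glycoprotein (348 against 113 CPM, log2 1.65, adjusted p = 0.00479). In IgG mice 12 of 23 were higher and 0 lower, with a median of 1.19, among them Cd93 (log2 1.38, adjusted p = 2.86e-05), Sfpi1, the PU.1 gene (log2 4.24, adjusted p = 0.000218), and Mn1 (log2 3.51, adjusted p = 0.00074). Of 20 T-lineage genes, 8 were lower and 0 higher in MxCre ETP, including Cd3d (log2 -3.00), Ptcra (-5.31) and Rag1 (-3.70). In IgG ETP 11 were lower, including Dtx1 (-2.68), Ptcra (-2.64) and Rag1 (-2.80), and 2 were higher. Some markers of other cells differed between the stages too. In MxCre mice the sum of 8 mast-cell markers was 343 to 530 CPM in ETP and 14.0 to 35.4 CPM in DN3, nearly all of it Cpa3, and that of 10 myeloid markers was 80.7 to 205 and 16.9 to 19.4 CPM, with Elane and Prtn3 at 0 at both stages. Most of the myeloid sum in MxCre ETP was Mpo, at a mean of 124 CPM. The sum of 6 thymic epithelial markers was 84.6 to 88.8 CPM in ETP and 155 to 168 CPM in DN3, with Foxn1, Krt5 and Krt8 at 0, and the dendritic-cell and the natural killer and innate lymphoid sums overlapped. Their part in the stage differences of the 9 genes was not tested.

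The next comparisons asked what long-term deletion of Zmiz1 did to the 9 genes. In ETP sorted 8 weeks after pI-pC, all 9 estimates were below control and 7 of the 9 genes were lower in every DeltaMxCre library than in every MxCre library, but none passed the test. Cd34 was at 56.9, 39.8 and 18.0 CPM in DeltaMxCre ETP and at 125, 176 and 130 CPM in MxCre ETP. Every deleted library lay below every control library, and the fitted log2 fold change was -1.91 (SE 0.354, adjusted p = 0.141).

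The receptor Flt3 had the largest estimate. It was at 1.88, 0.122 and 2.81 CPM in DeltaMxCre ETP and at 18.6, 15.5 and 11.3 CPM in MxCre ETP, or 73 and 798 counts (log2 -3.24, SE 0.975, adjusted p = 0.566). The groups did not overlap, and the deleted libraries varied widely among themselves. With 27, 2 and 44 counts in those libraries, Flt3 passed the low-count filter through MxCre ETP, where it was high. Cd44 was at 52.1, 73.7 and 53.1 CPM against 106, 193 and 137 CPM (log2 -1.28, SE 0.271, adjusted p = 0.252), again without overlap. Kit was at 266 ± 36.0 CPM against 396 ± 63.0 CPM (log2 -0.58, SE 0.204, adjusted p = 0.729).

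Among the transcription factors, Bcl11a was at 41.3, 23.9 and 29.2 CPM in DeltaMxCre ETP and at 106, 96.3 and 59.2 CPM in MxCre ETP (log2 -1.47, SE 0.311, adjusted p = 0.252). The groups did not overlap. Mef2c (13.3 ± 6.16 against 40.1 ± 20.3 CPM, log2 -1.60, SE 0.501, adjusted p = 0.639) and Hhex (31.7 ± 5.92 against 51.3 ± 14.7 CPM, log2 -0.69, SE 0.321, adjusted p = 0.894) did not overlap either. Erg (log2 -0.61, adjusted p = 0.888) and Lmo2 (log2 -2.63, SE 1.10, adjusted p = 0.837) overlapped. Lmo2 varied widely in the controls, at 17.9, 9.98 and 1.83 CPM.

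In this comparison edgeR called 0 of the 9 genes and 5 of 12010 genes in all, or 0.0416%. At an unadjusted p under 0.05 it had 9 of the 9 and 668 of all genes. The 7 genes with no overlap, Flt3 among them, compare with 6.46% of all genes lower without overlap. Flt3 passed the filter through MxCre ETP, so the counts of members given here support nothing for it. The median of the 9 fitted log2 fold changes was -1.47, against -0.03 over all genes, of which 52.5% were below 0. DESeq2 called 4 of the 9 lower: Cd34 (adjusted p = 0.000307), Cd44 (0.00615), Bcl11a (0.00876) and Flt3 (0.0453), where it called 0.809% of all genes and 0.432% lower. In edgeR without the low-count filter, Cd34 (0.0146), Cd44 (0.0355) and Bcl11a (0.0388) were called, and without MxCre ETP 3 Bcl11a was called (0.0454).

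Summed levels of markers of later and of other cells differed in the same libraries, although among these lists only 2 DN3 genes were called. The summed level of 5 DN3 genes (Il2ra, Ptcra, Rag1, Notch3 and Cd3e) was 6081 to 6887 CPM in DeltaMxCre ETP and 2477 to 3259 CPM in MxCre ETP. Of these, Il2ra (4733 against 1972 CPM, adjusted p = 0.0362) and Ptcra, which encodes the alpha chain of the pre-T-cell receptor (46.5 against 3.93 CPM, adjusted p = 0.0493), rose. The sum of 10 myeloid markers was 48.5 to 89.1 CPM against 80.7 to 205 CPM, with overlap and with S100a8 at 0 in both groups. Its largest part was Mpo (26.8 against 124 CPM). The sum of 8 natural killer and innate lymphoid markers was 75.4 to 122 CPM against 161 to 354 CPM. That of 8 mast-cell markers was 125 to 246 CPM against 343 to 530 CPM, nearly all of it Cpa3, with Fcer1a, Tpsb2 and Tpsab1 at 0. Higher sums without overlap were those of 6 double-positive thymocyte markers (319 to 401 against 227 to 284 CPM) and 6 thymic epithelial markers (105 to 143 against 84.6 to 88.8 CPM). Of the latter, Foxn1, Krt5 and Krt8 were at 0. The part of all these markers in the lower levels of the 9 genes was not tested. Of the 30 other stem and progenitor genes, 23 were tested, none passed, and 17 were below 0, with a median of -0.37. Of the 20 T-lineage genes, 3 rose: Il2ra, Ptcra and Dtx1, a Notch target (177 against 19.4 CPM, log2 3.18, adjusted p = 0.0185).

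**Figure D2:**
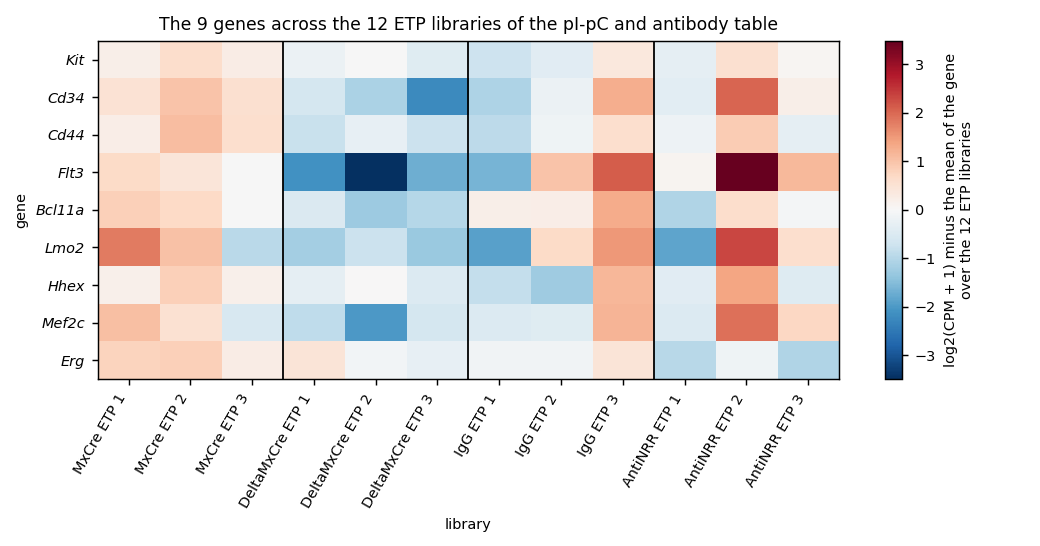
Heat map of the 9 genes (rows) in the 12 ETP libraries of the pI-pC and antibody table (columns), coloured by log2(CPM + 1) minus each gene's mean over the 12 libraries. The 3 DeltaMxCre ETP columns are mostly blue (low), and IgG ETP 3 and AntiNRR ETP 2 are the reddest columns of their groups.

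In DN3, the same deletion lowered 2 of the 9 genes past the test, Bcl11a and Cd44. Bcl11a, a repressor that B-lymphoid and progenitor cells use, was at 6.81, 4.21 and 6.33 CPM in DeltaMxCre DN3 and at 27.1, 28.3 and 14.6 CPM in MxCre DN3. The groups were well separated. It fell by 2.01 on the log2 scale, or 4.03-fold (SE 0.324, adjusted p = 0.00752), and the call was lost without DeltaMxCre DN3 2 (0.0779) or DeltaMxCre DN3 3 (0.0675).

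Cd44 was at 0.674, 0.738 and 0.536 CPM in DeltaMxCre DN3 and at 6.94, 5.81 and 3.59 CPM in MxCre DN3. It fell by 3.06 on the log2 scale, or 8.31-fold (SE 0.636, adjusted p = 0.0265). This was a fall from an already low level, and the call was kept only without MxCre DN3 3 (0.0101). Without any other library it was lost, with adjusted p up to 0.145. With 9, 14 and 10 counts in the DeltaMxCre DN3 libraries, Cd44 passed the low-count filter through MxCre DN3, where it was higher.

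Of the 9 genes, 7 passed the low-count filter in this comparison and 2 were called, both lower, where edgeR called 1.44% of 12675 genes and 0.458% lower. DESeq2 called the same 2 (4.3e-06 for Bcl11a and 0.00022 for Cd44), where it called 3.91% of all genes and 1.54% lower. Bcl11a, Cd44, Cd34 and Mef2c had no overlap between the groups and were lower, as were 10.5% of all genes. Cd44 and Cd34 passed the filter through MxCre DN3, where they were higher, so the counts of members given here support nothing for them. These counts bear only on Kit, Bcl11a, Hhex, Mef2c and Erg. Mef2c was at 0.599, 2.11 and 3.97 CPM against 4.01, 6.66 and 9.28 CPM (log2 -1.57, adjusted p = 0.219). Cd34 had 10 counts against 38 (log2 -1.92, SE 1.43, adjusted p = 0.573), and Hhex was at 1.86 ± 0.653 against 2.34 ± 0.8 CPM (log2 -0.32, adjusted p = 0.884). Flt3 (1 count in each group) and Lmo2 (16 counts against 0) were not tested.

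Kit and Erg lay on the other side in these DN3 libraries. Erg was at 43.6, 35.2 and 53.5 CPM against 24.7, 37.5 and 28.3 CPM (log2 0.55, SE 0.216, adjusted p = 0.224), with overlap. Kit was at 95.4, 104 and 126 CPM against 100, 93.2 and 76.5 CPM (log2 0.27, adjusted p = 0.413), also with overlap. The summed level of 6 double-positive thymocyte markers was 615 to 696 CPM against 415 to 516 CPM, with 2 of 6 called higher. The DN3 sum overlapped, at 7774 to 9689 against 7177 to 9685 CPM. Their part in the falls of Bcl11a and Cd44 was not tested. Of the other stem and progenitor genes, 17 were tested and none passed, with a median of 0.13. Of the T-lineage genes, Dtx1 rose (log2 1.13, adjusted p = 0.00115), and Lef1 (-0.85, 0.00622) and Rag1 (-0.77, 0.0161) fell.

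The Notch1 antibody was given to ask which genes depend on Notch1 within a day. In DN3 it raised Kit and lowered Erg. Kit was at 174, 153 and 209 CPM in AntiNRR DN3 and at 91.2, 96.7 and 109 CPM in IgG DN3. Every treated library lay above every control library. Kit rose by 0.84 on the log2 scale, or 1.79-fold (SE 0.127, adjusted p = 0.000153), and was called in each of 6 fits without 1 library. Its AntiNRR DN3 libraries lay above all other DN3 libraries of the table, and the highest of them above IgG ETP 1.

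Erg was at 21.6, 18.2 and 13.1 CPM in AntiNRR DN3 and at 40.9, 34.9 and 36.0 CPM in IgG DN3. It fell by 1.09 on the log2 scale, or 2.13-fold (SE 0.241, adjusted p = 0.00688), and was called in each of 6 fits without 1 library, with adjusted p up to 0.0496. This was the lowest of the 8 group means for Erg in the table, with no overlap with the next.

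Of the 9 genes, 6 passed the filter and 2 were called, 1 in each direction, where edgeR called 5.61% of 12658 genes, 2.65% higher and 2.96% lower. Groups without overlap made up 11.4% (higher) and 11.0% (lower) of all genes. Bcl11a was at 30.1, 32.3 and 14.7 CPM against 32.9, 32.3 and 39.1 CPM (log2 -0.45, adjusted p = 0.411). Mef2c (log2 0.42, adjusted p = 0.758), Cd44 (0.19, 0.946) and Hhex (-0.06, 0.985) overlapped. The rest were near 0 counts and were not tested: Cd34 had 0 counts against 4, Flt3 had 16, all in AntiNRR DN3 3, against 0, and Lmo2 had 0 against 14, all in IgG DN3 1.

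Other markers moved in the same libraries. The sum of the 8 mast-cell markers was 102 to 150 CPM in AntiNRR DN3 and 14.5 to 29.0 CPM in IgG DN3, nearly all of it Cpa3 (122 against 20.7 CPM), with Ms4a2, Fcer1a, Tpsb2, Tpsab1, Cma1 and Mcpt4 at 0. Kit is also known as a mast-cell gene. The sum of 8 dendritic-cell markers was 622 to 740 against 269 to 319 CPM, most of it Ccr9 (598 against 205 CPM), with Clec9a and Cd209a at 0, and 1 of 5 tested was called higher and 1 lower. That of the natural killer and innate lymphoid markers was 227 to 252 against 117 to 145 CPM, most of it Gzma (217 against 118 CPM), with Ncr1 and Klrb1c at 0. The DN3 sum was 5399 to 6222 against 10251 to 10462 CPM, with 4 of 5 called lower, and the double-positive sum 743 to 823 against 563 to 666 CPM. Their part in the changes of Kit and Erg was not tested.

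Of the 30 other stem and progenitor genes, 17 were tested in these DN3 libraries, with a median of 0.15. Fli1, an ETS factor like Erg, rose (166 ± 5.83 against 116 ± 3.77 CPM, log2 0.50, adjusted p = 0.00611), and Mycn, a Myc-family factor, fell (16.6 ± 3.27 against 32.8 ± 2.07 CPM, log2 -0.99, adjusted p = 0.0147). Of the 20 T-lineage genes, 9 fell and 2 rose. The falls with the lowest p were Ptcra (log2 -1.59, adjusted p = 5.61e-08), Il2ra (637 against 3413 CPM, log2 -2.43, adjusted p = 1.46e-05) and Cd3g (-0.75, 2.43e-05).

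**Figure D3:**
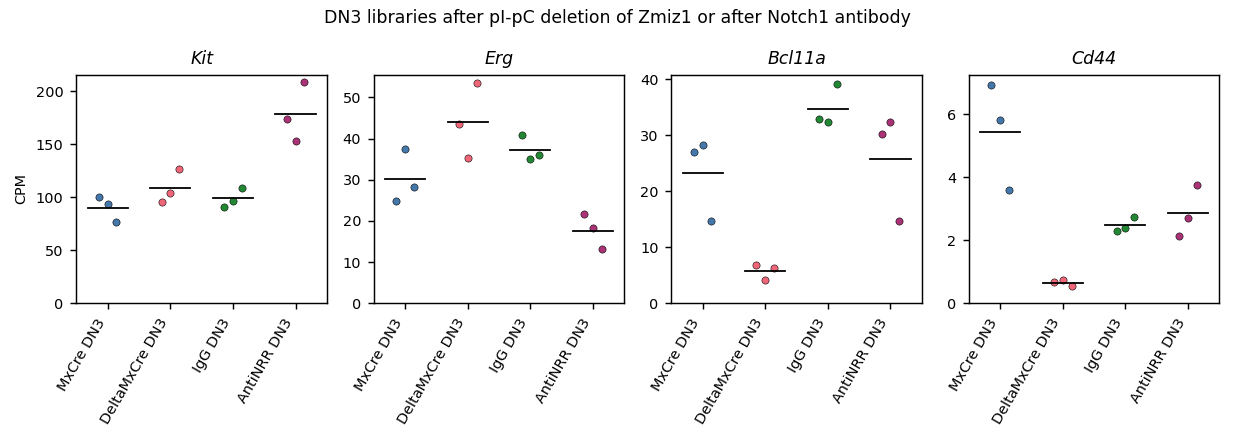
CPM of Kit, Erg, Bcl11a and Cd44 in the 12 DN3 libraries of the pI-pC and antibody table, with 1 point per library, a bar at the mean of 3 libraries and axes from 0. Kit is highest and Erg lowest in AntiNRR DN3, and Bcl11a and Cd44 are lowest in DeltaMxCre DN3.

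In ETP the antibody gave no call, and 1 library of each group held the highest value of all 9 genes. Flt3 shows the spread, at 12.3, 138 and 26.0 CPM in AntiNRR ETP and at 3.06, 23.7 and 52.5 CPM in IgG ETP (log2 1.15, SE 1.41, adjusted p = 0.993). Cd34 was at 67.3, 359 and 99.8 CPM against 40.5, 75.0 and 211 CPM (log2 0.69, SE 0.986, adjusted p = 0.994). In both genes the libraries of a group were far apart and the groups overlapped.

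Erg was the gene whose groups did not overlap, at 29.3, 52.8 and 27.6 CPM in AntiNRR ETP and at 53.8, 53.1 and 80.1 CPM in IgG ETP (log2 -0.77, SE 0.285, adjusted p = 0.783), as were lower 5.96% of all genes. Bcl11a was at 28.4, 91.5 and 57.0 against 68.6, 70.1 and 147 CPM (log2 -0.69, adjusted p = 0.968). The estimates of Mef2c (0.74), Lmo2 (0.59), Hhex (0.35), Kit (0.31) and Cd44 (0.27) were above 0. edgeR called 0 of the 9 and 0 of 12568 genes (0.0%), with 1 of the 9 and 687 genes at an unadjusted p under 0.05, and DESeq2 called 25 genes (0.504%) and 0 of the 9. Without IgG ETP 3 and AntiNRR ETP 2 none was called either, and the estimates were -0.92 for Erg (adjusted p = 0.724), -0.71 for Bcl11a, 0.70 for Mef2c, 0.61 for Hhex, 0.52 for Cd34 and for Flt3, 0.42 for Kit, 0.24 for Cd44 and -0.08 for Lmo2. That alternative was chosen after the data were seen. Without AntiNRR ETP 2 alone the estimates of Flt3 (-0.46), Cd34 (-0.38), Lmo2 (-0.97), Hhex (-0.55), Cd44 (-0.21) and Mef2c (-0.08) were below 0.

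The libraries that stood apart also held other levels of markers. The myeloid sum was 330 CPM in IgG ETP 3 against 77.4 and 146 CPM in the other IgG ETP libraries, and 502 CPM in AntiNRR ETP 2 against 85.0 and 117 CPM, with Elane, S100a8 and S100a9 at 0 in both groups. Most of that sum was Mpo, at a mean of 136 CPM in IgG ETP and 193 CPM in AntiNRR ETP. The DN3 sum was lowest of its group in both, at 2860 CPM in IgG ETP 3 (against 4334 and 3689) and 640 CPM in AntiNRR ETP 2 (against 1287 and 1918). Between the groups, the mast-cell sum was 573 to 759 CPM in AntiNRR ETP and 255 to 364 CPM in IgG ETP, with Ms4a2, Fcer1a, Tpsb2 and Tpsab1 at 0 in both. Their part in the levels of the 9 genes was not tested. The antibody passed none of the 25 tested other stem and progenitor genes (median 0.09) and none of the 20 T-lineage genes (median -0.44) in ETP.

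Whether deletion and antibody act differently was tested directly, as the difference between the 2 effects within the stage. The 2 arms differ in time (8 weeks and 24 hours), in genotype and in their controls. In DN3 the Erg difference passed: the deletion effect exceeded the antibody effect by 1.62 on the log2 scale (SE 0.32, adjusted p = 0.00559), and it was called in each of 12 fits without 1 library, up to 0.031. Here edgeR called 1.23% of 13557 genes, 0.76% in that direction. The direction rests on a fall under the antibody and an estimate above 0, not called, after deletion.

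Bcl11a, the gene that fell after deletion, gave a difference of -1.58 (SE 0.42, adjusted p = 0.0575). It was called without the low-count filter (0.0256), without MxCre DN3 3 (0.00881) and without AntiNRR DN3 3 (0.0141). Cd44 (-3.27, SE 0.955, adjusted p = 0.0967) and Kit (-0.59, SE 0.202, adjusted p = 0.177) did not pass. So a fall of Bcl11a or Cd44 after deletion, or a rise of Kit under the antibody, was not shown to be particular to either treatment. Among the other stem and progenitor genes, Mycn differed in the direction of Erg (1.30, adjusted p = 0.0433) and Cd93 in the other (-0.91, adjusted p = 0.0384).

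None of the 9 genes passed in the other 3 models of differences. For deletion against antibody in ETP, edgeR called 11 of 13408 genes (0.082%), with 5 of the 9 and 858 genes at an unadjusted p under 0.05. For the deletion effect in ETP against DN3 it called 1 of 13406 (0.00746%), with 4 of the 9 and 740 genes unadjusted. Lmo2, among these 4, had 0 counts in MxCre DN3 and 16 in DeltaMxCre DN3 and passed the low-count filter through ETP alone. The count of 4 supports nothing for Lmo2. For the antibody effect in ETP against DN3 edgeR called 0 of 13603 (0.0%), with 0 of the 9 and 743 genes unadjusted. DESeq2 was not run on these differences.

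The tamoxifen comparisons asked about the first days after Zmiz1 loss. In ETP none of the 9 genes was called. Cd34 was at 80.2, 176, 128 and 92.4 CPM in DeltaTamCre ETP and at 93.2, 56.5, 77.6 and 88.2 CPM in TamCre ETP (log2 0.60, SE 0.242, adjusted p = 0.907), with overlap. Bcl11a was at 78.7, 189, 150 and 116 CPM against 107, 83.0, 106 and 139 CPM (log2 0.29, adjusted p = 0.912). Flt3 was at 19.2, 20.4, 18.0 and 15.3 CPM against 13.6, 9.39, 9.95 and 18.9 CPM (log2 0.49, adjusted p = 0.907). These groups overlapped, and the estimate for Flt3 lay on the other side of 0 from the -3.24 seen 8 weeks after pI-pC, a difference between tables that was not tested.

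The estimates for Lmo2 (0.56), Cd44 (0.34) and Mef2c (0.12) were above 0, Hhex was at 0.00, and Kit (-0.09) and Erg (-0.18) were below. edgeR called 0 of the 9 and 0 of 12924 genes (0.0%), with 1 of the 9 and 640 genes at an unadjusted p under 0.05, and DESeq2 called 8 genes (0.0472%) and 0 of the 9. The median of the 9 was 0.29, against 0.03 over all genes. DeltaTamCre ETP 2 was the highest of its group for 7 of the 9 genes and DeltaTamCre ETP 1 the lowest for 7. The natural killer and innate lymphoid sum was 717 CPM in DeltaTamCre ETP 1 and 54.4 to 88.8 CPM in the other libraries of that group. The double-positive sum ran from 178 CPM in DeltaTamCre ETP 2 to 1670.5 CPM in DeltaTamCre ETP 4, and from 217 to 820 CPM in TamCre ETP. The DN3 sum ran from 1522 CPM in DeltaTamCre ETP 1 to 4959 CPM in DeltaTamCre ETP 4. The part of these markers in the levels of the 9 genes was not tested.

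In DN3 after tamoxifen, Kit, Cd34 and Erg had the lowest p of the 9, and none passed. Erg was at 40.3, 52.0, 40.0 and 37.8 CPM in DeltaTamCre DN3 and at 33.5, 32.3, 31.7 and 36.5 CPM in TamCre DN3. Every deleted library lay above every control library, as were 4.38% of all genes, and the estimate was 0.35 (SE 0.105, adjusted p = 0.177 in edgeR and 0.0731 in DESeq2). Kit was at 52.1, 72.2, 69.3 and 62.5 CPM against 47.3, 52.6, 49.3 and 54.4 CPM (log2 0.33, SE 0.0986, adjusted p = 0.173, 0.0767 in DESeq2), with overlap through DeltaTamCre DN3 1.

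Cd34 was low, at 1.10, 2.35, 1.27 and 1.25 CPM against 0.569, 0.663, 1.19 and 0.932 CPM (log2 0.83, SE 0.352, adjusted p = 0.288). Bcl11a and Cd44, the genes that fell in DN3 after pI-pC, had estimates near 0 here: Bcl11a was at 13.0 to 17.4 CPM against 13.7 to 18.1 CPM (log2 -0.02, SE 0.13) and Cd44 at 4.06 to 5.44 CPM against 3.31 to 5.39 CPM (log2 0.15, SE 0.195). Hhex (0.22), Lmo2 (0.50) and Mef2c (0.07) did not pass either, and Flt3 was not tested. Zmiz1 itself was at 0.633 of control in these libraries and at 0.377 of control in DN3 after pI-pC. The part of that difference in the estimates was not tested. edgeR called 0 of the 8 genes tested, where it called 11 of 13298 genes (0.0827%), with 3 of the 9 and 2069 genes at an unadjusted p under 0.05. DESeq2 called 415 genes (3.29%) and 0 of the 9. The double-positive sum was 279 to 334 CPM in DeltaTamCre DN3 and 214 to 266 CPM in TamCre DN3, and the natural killer and innate lymphoid sum 229 to 254 against 297 to 315 CPM. The latter turned on Gzma (141 against 229 CPM), and the list's median log2 fold change was -0.03, with 1 of 7 tested called lower. The part of these markers in the values of the 9 genes was not tested. None of the 26 (ETP) and 24 (DN3) tested other stem and progenitor genes passed after tamoxifen, with medians of 0.03 and 0.21, and none of the 20 T-lineage genes passed at either stage.

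**Figure D4:**
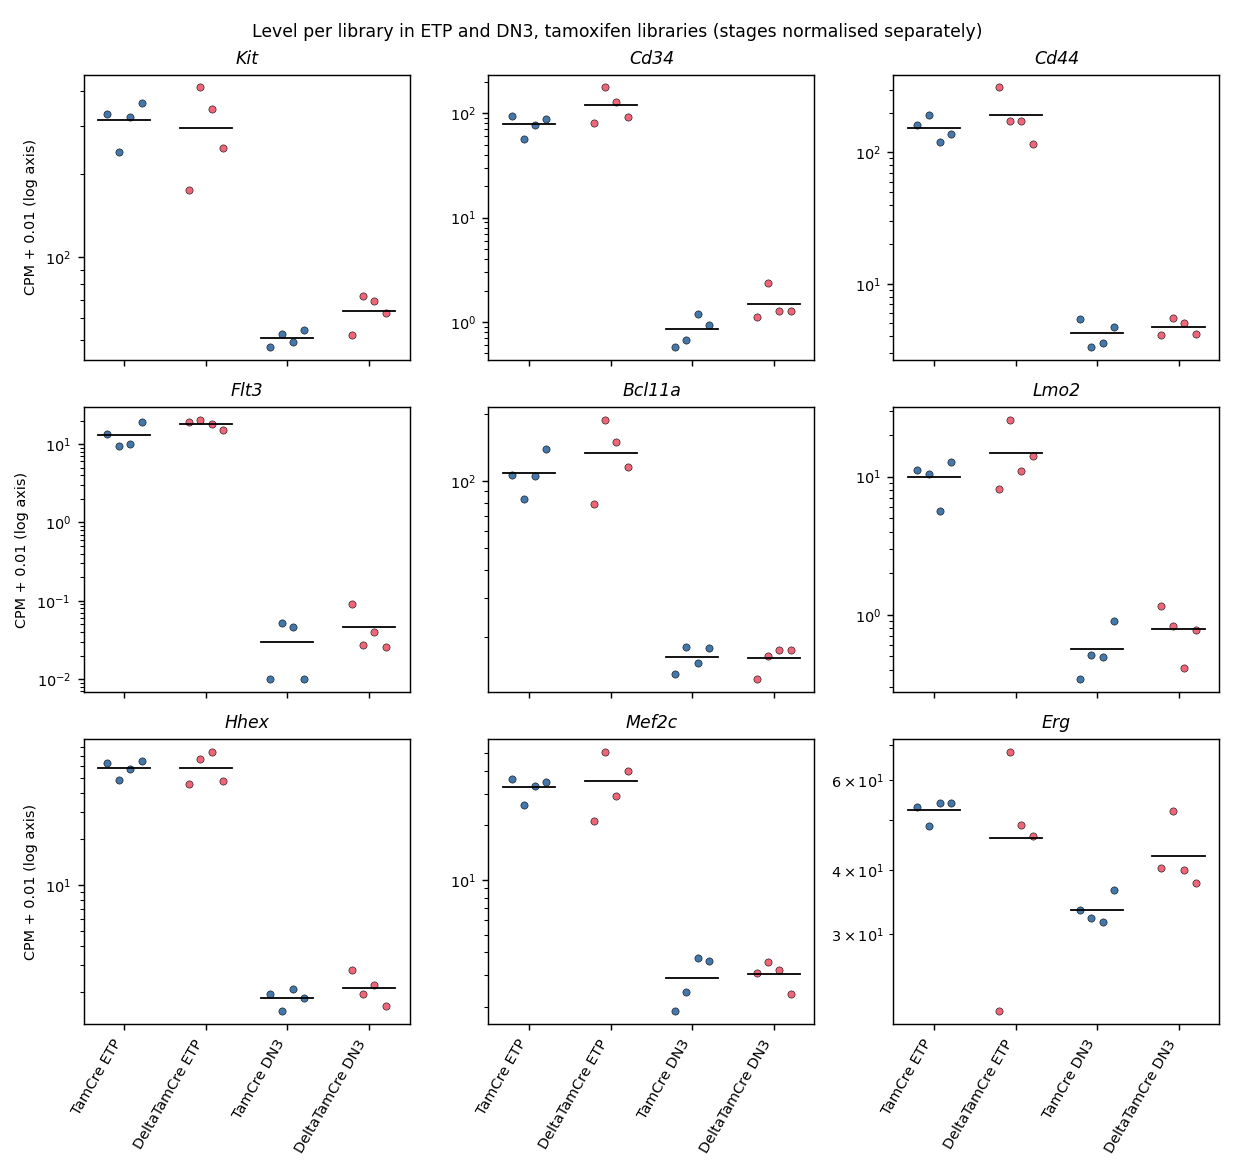
CPM of each of the 9 genes in the 16 tamoxifen libraries, on a log axis after adding 0.01 CPM, with 1 point per library and a bar at the mean of 4. ETP and DN3 come from different kits and are not on a common scale. Cd34, Flt3, Hhex, Lmo2, Mef2c and Cd44 are low in DN3, and deleted and control libraries mostly overlap.

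**Figure D5:**
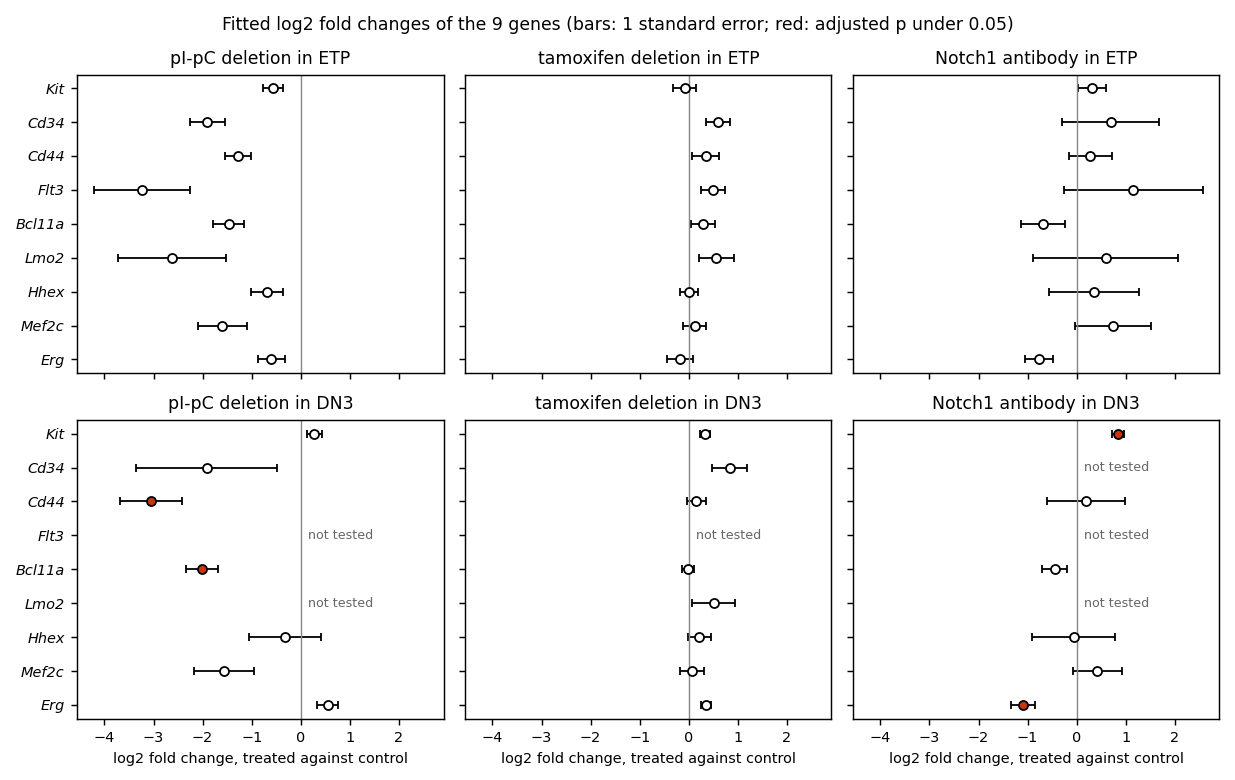
Fitted log2 fold changes of the 9 genes (rows) in the 6 comparisons of treated with control (panels), with bars of 1 standard error and filled red points at an adjusted p under 0.05. The 4 filled points are Cd44 and Bcl11a below 0 after pI-pC in DN3, and Kit above and Erg below 0 after the antibody in DN3.

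The 2 genes whose pattern over the 24 libraries of the pI-pC and antibody table was closest to each of 8 members were found among 10081 genes that averaged 5 CPM or more. Likeness was the root mean square (RMS) difference of log2(CPM + 1), centred per gene, which is a description over libraries that share their stage and group. Kit was closest to Atp1b3 (0.317) and Ncf1 (0.324), against its own RMS spread of 0.817. Erg was closest to Mycn (0.424) and Coro2a (0.428), against a spread of 0.723. Hhex was closest to Lpcat2 (0.521) and Nrgn (0.534), against 1.90.

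Cd34 was closest to Mpo, the myeloperoxidase gene (0.683), and then to Gpr97 (1.07), against a spread of 3.20. Cd44 was closest to Gpr97 (0.725) and Car2 (0.834), against 2.47. Flt3 was closest to Plek (0.863) and Eltd1 (0.996), against 2.21. The closest genes of Bcl11a were Plxnb2 (0.618) and Nynrin (0.661), against 1.21. Those of Lmo2 were Bex6 (0.710) and Ffar2 (0.756), against 1.53.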

How the data were processed

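RNA was counted per gene symbol in 40 libraries. The authors deposited 3 tables of estimated counts, which were rounded to whole numbers (1.21% to 1.84% of nonzero values lay further than 0.01 from one). Per the submitters' processing notes, the tools, in no stated order, were Cuffdiff 2.1.1, Cufflinks, TopHat2 2.0.9, FastQC 0.10.0 and Bowtie2 2.1.0.0, on mm10; the counting settings are not given in the sources used here, so strand use and shared reads are unknown. Per the labels, pI-pC and antibody libraries were made from 10 ng of RNA with 16 PCR cycles, tamoxifen DN3 from 100 ng with 12 and tamoxifen ETP from 1 ng with 15, from more DN3 than ETP cells, and no test joined 2 tables.

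Each comparison used its 2 groups in edgeR 4.0.16 (R 4.3.3): filterByExpr (minimum count 10, minimum total 15), TMM, robust quasi-likelihood F test, Benjamini-Hochberg over all genes, called at an adjusted p under 0.05, prior count 0.125. CPM use TMM-scaled library sizes, and fold changes are treated or deleted against control, or ETP against DN3. Differences of effects used 4 interaction models. DESeq2 1.42.0, its size factors, no low-count filter, a stricter one (mean of 10 counts), a spread shared over groups, a replicate block and leaving out each library were alternatives. On simulated data with 200 genes changed 4-fold, the test recovered 66% in pI-pC ETP (12010 genes), 82.5% in antibody ETP (12568), 94% in pI-pC DN3 (12675) and 89.5% in antibody DN3 (12658). False calls made up 7.04%, 6.78%, 4.57% and 3.76% of the calls. The changed genes were drawn above a minimum expected count, with the spread of the trend over genes, not each gene's own. Recovery of genes below that count, with wider spread or with changes under 4-fold was not simulated. The labels do not say that antibody libraries came from separate mice, so their p-values measure the spread between libraries, which may be technical. No 2 libraries of a group agreed within sampling noise (lowest chi-square per degree of freedom 17.2).

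Named genes are the 9 in every comparison, Zmiz1, called members of the other stem and progenitor list (30) and the T-lineage list (20), at most 3 per comparison by lowest p, and the 2 nearest patterns per member; the nearest patterns of Mef2c are not reported here. Marker sums are over lists of 5 to 10 genes. The members and lists were chosen with earlier results of these data known. PU.1 is listed under its older symbol Sfpi1. Promoter sequences are from RefSeq, GRCm38.p6. Counting intervals are exact, at 95%.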

Additional observations from a re-analysis of the deposited data

Results flagged for a closer look

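In DN3 cells the log2 fold change of Erg was 1.62 higher after pI-pC deletion than under the Notch1 antibody. This was a test of the difference itself (edgeR interaction term, adjusted p = 0.00559). The deletion estimate was 0.55 and not called, and the antibody estimate was -1.09 and called. The 2 arms differ in time, in genotype and in their controls. Erg was lower in all 3 AntiNRR DN3 libraries than in the 3 IgG DN3 libraries, and 2 of the 3 DeltaMxCre DN3 libraries lay above all 3 MxCre DN3 libraries.

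Cd34 in DeltaTamCre DN3 was 2.35 CPM in replicate 2, far from the 1.10 to 1.27 CPM of the other 3 libraries of the group. The test for a lone far value was run in 36 groups of 4 libraries, and chance flags about 1 in 20 such groups.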

How the results depend on the processing

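Of 931 values of single genes under the alternatives, 838 kept their direction and side of the threshold, 26 reversed, 21 passed and 46 lost the call; the causes were not tested.

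With DESeq2 the genes called were 105 after pI-pC in ETP (5 in edgeR), 519 in DN3 (183), 8 after tamoxifen in ETP (0), 415 in DN3 (11), 25 with the antibody in ETP (0) and 1150 between stages in MxCre mice (371). Without the filter they were 18 after pI-pC in ETP, 347 in DN3 and 8 with the antibody in ETP. With a shared spread they were 399 after pI-pC in DN3, 1474 between stages in MxCre and 936 in IgG mice (1873). Of the 9 genes after pI-pC in ETP, 4 were called by DESeq2, 3 without the filter and 1 with the replicate block (0 in edgeR as run), and without the filter 2 differed between deletion and antibody in DN3 (1).

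The labels do not say that replicate numbers pair libraries, and no comparison had every pair's deviations correlated above 0.1 (range -0.664 to 0.307). With a replicate block 14 genes were called after pI-pC in ETP, Cd34 among them (adjusted p = 0.0109), 0 after tamoxifen in DN3, 663 between stages in MxCre mice and 0 for the stage difference of the pI-pC effect (1 without it). Hhex after tamoxifen in ETP was then -0.017 (0.0040).

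Leaving out 1 library at a time gave 0 (without DeltaMxCre ETP 1) to 17 genes (MxCre ETP 1) after pI-pC in ETP, 12 (DeltaMxCre DN3 3) to 403 (MxCre DN3 3) in DN3, 0 to 1 after tamoxifen in ETP, 0 to 8 in DN3, 0 to 5 with the antibody in ETP and 351 (IgG DN3 3) to 677 in DN3. Between stages it gave 135 (MxCre ETP 2) to 735 (MxCre ETP 1) in MxCre and 941 (IgG DN3 3) to 1883 in IgG mice, and for differences of effects 0 to 12 (pI-pC by stage), 0 to 3 (antibody by stage), 5 to 26 (deletion minus antibody, ETP) and 99 to 290 (DN3). Of the 9 genes it gave 0 to 1 after pI-pC in ETP, 0 (DeltaMxCre DN3 2) to 2 in DN3, 5 (MxCre DN3 1) to 9 between stages in MxCre mice, 4 (IgG DN3 2) to 9 in IgG mice and 1 to 2 for deletion minus antibody in DN3.

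Estimates that crossed 0 were, after tamoxifen in ETP, Kit (-0.30 to 0.092), Hhex (-0.13 to 0.10), Mef2c (-0.12 to 0.29) and Erg (-0.43 to 0.049), in DN3 Bcl11a (-0.091 to 0.072) and Mef2c (-0.094 to 0.21), with the antibody in DN3 Cd44 (-0.051 to 0.37) and Hhex (-0.44 to 0.41), and in ETP Cd34 (-0.38 to 1.61), Cd44 (-0.21 to 0.72), Flt3 (-0.46 to 2.16), Lmo2 (-0.97 to 1.50), Hhex (-0.55 to 1.52) and Mef2c (-0.085 to 1.53). Without both IgG ETP 3 and AntiNRR ETP 2, chosen after the data were seen, Lmo2 was -0.085. In DN3, Flt3 and Lmo2 had 0 to 16 counts per group in the pI-pC and antibody table, too few for the test, and Flt3 had 7 and 8 counts per group in the deeper tamoxifen DN3 libraries.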
